A study of Mus musculus with 6 samples.

Results

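The Srsf2 locus comprised 3 genes of the deposited table, Srsf2, Mettl23 and Mfsd11, taken by symbol from 55850 gene rows. Srsf2 is the gene targeted in the conditional knockout, and Mettl23 and Mfsd11 lie on the opposite strand with exon bases in common with it. RNA of whole mouse testis was sequenced in 3 libraries labelled as conditional knockout (cKO; the labels write CKO) and 3 labelled WT, none of them treated. According to the series title SRSF2 was removed from Sertoli cells, the somatic nurse cells of the seminiferous tubule. No source used here gives the age and strain of the mice, the Cre driver, the deleted exons or whether a library holds 1 or several animals. The p-values therefore reflect how far these libraries scatter, and that scatter could be technical. In whole testis, fewer cells of a type and less RNA per cell cannot be told apart.

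SRSF2 is a serine and arginine rich (SR) protein. It binds exons through an RNA recognition motif and recruits the spliceosome through its RS domain, which SRPK and CLK kinases phosphorylate. It also limits its own level: the protein promotes splicing within the 3′ part of its own transcript, and the spliced forms are degraded by nonsense-mediated decay. METTL23 is a protein methyltransferase that in mouse oocytes modifies an arginine of histone H3, and MFSD11 is a membrane protein of the major facilitator superfamily whose cargo is not established.

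The 3 genes overlap on chromosome 11 of GRCm38, as annotated in GENCODE M21. Srsf2 (ENSMUSG00000034120) occupies 116849901 to 116853094 on the minus strand, Mettl23 (ENSMUSG00000090266) 116843278 to 116854263 on the plus strand and Mfsd11 (ENSMUSG00000020818) 116852440 to 116875635 on the plus strand. Of the 2958 exon bases of Srsf2, 748 (25.3%) are also exon bases of a neighbour. A stretch of 460 of them, 116849901 to 116850360, lies in the 3′ untranslated part of Srsf2 and overlaps 1 of 8 Mettl23 transcripts, annotated as a retained intron. A second stretch of 288 bases, 116852568 to 116852855, lies wholly in Srsf2 coding sequence and overlaps untranslated exon sequence of 1 of 12 Mfsd11 transcripts, a target of nonsense-mediated decay. Mettl23 and Mfsd11 have another 257 exon bases in common, and Mettl23 has 172 in common with Jmjd6, its head-to-head neighbour on the minus strand. In all, 889 of 2697 Mettl23 exon bases (33.0%) and 545 of 7076 Mfsd11 exon bases (7.70%) belong to another of these genes. The gene lengths in the authors' table, 2958, 2697 and 7076 bases, equal these exon totals, so the FPKM values were scaled to the full length, shared bases included.

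**Figure D1:**
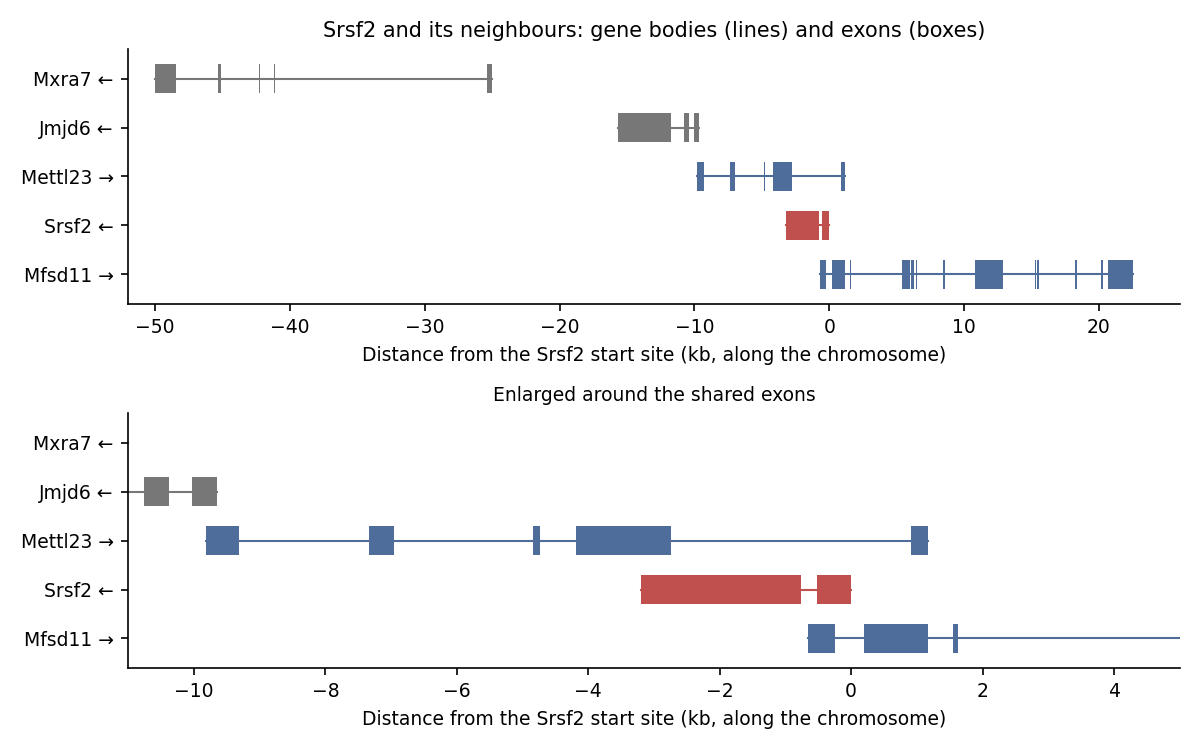
Gene bodies (lines) and merged exons (boxes) of Srsf2, Mettl23, Mfsd11, Jmjd6 and Mxra7 from GENCODE M21, plotted by distance in kb from the Srsf2 start site, with arrows for the strand; the lower panel enlarges the region of shared exons. The 3′ end of Srsf2 overlaps an exon of Mettl23, and part of its coding sequence overlaps an exon of Mfsd11.

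In RefSeq on GRCm38.p6, Srsf2 and Mfsd11 start close together and run away from each other, whereas in GENCODE M21 the outermost Mfsd11 start lies inside the Srsf2 gene body. The 250 bases before the RefSeq starts are shown because these starts lie at the head of the gene that was targeted; of the 2 RefSeq starts of Mfsd11, the window of the one nearer to Srsf2 is printed. The Srsf2 window is chr11:116853095-116853344 on the minus strand and the Mfsd11 window is chr11:116853512-116853761 on the plus strand. Capitals mark 3 motifs searched on both strands. These are TATAAA, as in a TATA box, the CCAAT box, and GGGCGG, as in a GC box, of which 2 reverse matches in the Srsf2 window overlap each other.
Srsf2: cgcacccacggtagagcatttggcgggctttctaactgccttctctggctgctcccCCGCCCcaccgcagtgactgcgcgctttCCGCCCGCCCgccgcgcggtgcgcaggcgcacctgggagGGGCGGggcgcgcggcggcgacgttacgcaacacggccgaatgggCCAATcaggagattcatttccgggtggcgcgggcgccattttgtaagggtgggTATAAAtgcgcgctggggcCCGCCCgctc
Mfsd11: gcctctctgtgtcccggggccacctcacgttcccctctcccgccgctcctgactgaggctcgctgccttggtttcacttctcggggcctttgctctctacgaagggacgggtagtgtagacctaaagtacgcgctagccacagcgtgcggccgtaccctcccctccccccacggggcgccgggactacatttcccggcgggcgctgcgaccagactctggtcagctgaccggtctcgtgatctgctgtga
The Srsf2 window held 1 TATAAA, 1 CCAAT and 5 GGGCGG matches, with TATAAA 29 bases and CCAAT 82 bases before the start. The printed Mfsd11 window held 0 matches of any of the 3, and the window of the other Mfsd11 start, at 116853750 to 116853999, held 0 TATAAA, 1 CCAAT and 1 GGGCGG. Of 32851 RefSeq windows of this length, 12.4% held TATAAA, 33.8% CCAAT and 32.7% GGGCGG. Both printed windows were rich in G and C, at 69.6% for Srsf2 and 65.6% for Mfsd11, against a median of 52.4% over all windows.

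Depth was even, at 16185976 to 17281330 recovered reads in the cKO libraries and 16070287 to 16479907 in the WT libraries. WT replicate 1 stood apart from the other libraries. Its read counts differed from those of the other WT libraries with a chi-square per gene of 31.4 and 42.1, against 11.8 to 17.0 for every other pair within a group. It had the highest value of the 6 libraries in 26.9% of tested genes and the lowest value in 3993 of 14238. The differences and profile distances of the locus genes are therefore given with and without it. Of 18 Sertoli cell markers, all in the table and none at 0, 16 had a negative log2 difference, and their summed level was 1299 to 1488 FPKM in cKO and 1760 to 2305 FPKM in WT libraries. WT replicate 1 was highest for 8 of the 18. Of 10 germ cell markers, none at 0, 8 were tested and all 8 were positive, with sums of 182 to 266 FPKM in cKO and 132 to 230 FPKM in WT. By limma, 0 genes of either list passed after adjustment over all tested genes. The sum of 5 macrophage markers was 15.4 to 19.9 FPKM in cKO and 20.4 to 24.2 FPKM in WT, though 3 of the 5 differences were positive. For Leydig, peritubular myoid and endothelial markers the sums of the groups overlapped. The 18S ribosomal RNA gene took 0.727 to 0.835% of reads in cKO and 1.58 to 2.09% in WT. The part of these differences in the values of the locus was not tested.

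Srsf2 was the most abundant gene of the locus, with a mean over the 6 libraries above that of 97.2% of tested genes. It had 74.0, 87.3 and 87.3 FPKM in the cKO testes, against 127, 96.7 and 102 FPKM in the WT testes. All 3 cKO libraries lay below all 3 WT libraries, with cKO replicate 1 the lowest and WT replicate 1 the highest. These values rest on 3736 to 4553 reads in cKO and 4804 to 5974 in WT, so that counting error (95% Poisson interval) was at most 3.22% either way, less than the SD between libraries, which was 9.29% of the mean in cKO and 14.9% in WT. The cKO mean was 76.4% of the WT mean, or 83.5% without WT replicate 1. The log2 difference, cKO minus WT, was -0.38, with a 95% interval of -0.72 to -0.04, which corresponds to 0.607 to 0.974 of the WT level on the FPKM + 1 scale. By limma with Benjamini-Hochberg adjustment over 14238 genes it did not pass (adjusted p = 0.384, unadjusted p = 0.0338, SE 0.15), and the exact two-sided permutation p of 0.1 is the lowest possible with 3 libraries a group. Across the table, 0.00702% of genes were called lower and 0.00702% higher (1 gene each, 0.0140% in all). Of the 3 locus genes 0 were called, also by limma voom on recovered reads, and 1, Srsf2, had an unadjusted p under 0.05, where 7.68% of all genes did so with cKO lower and 4.65% with cKO higher. Groups without overlap were found in 18.6% of genes, with cKO below WT in 9.92%. A log2 difference at or below that of Srsf2 was found in 7.70% of genes. By limma, the unadjusted p of Srsf2 ran from 0.0222 to 0.1085 with a library left out. It stayed under 0.05 only without WT replicate 2. The table sums all Srsf2 transcripts of a library, of which GENCODE M21 lists 6 (2 protein-coding and 2 subject to nonsense-mediated decay). It does not separate the cells in which the gene was deleted from the rest.

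**Figure D2:**
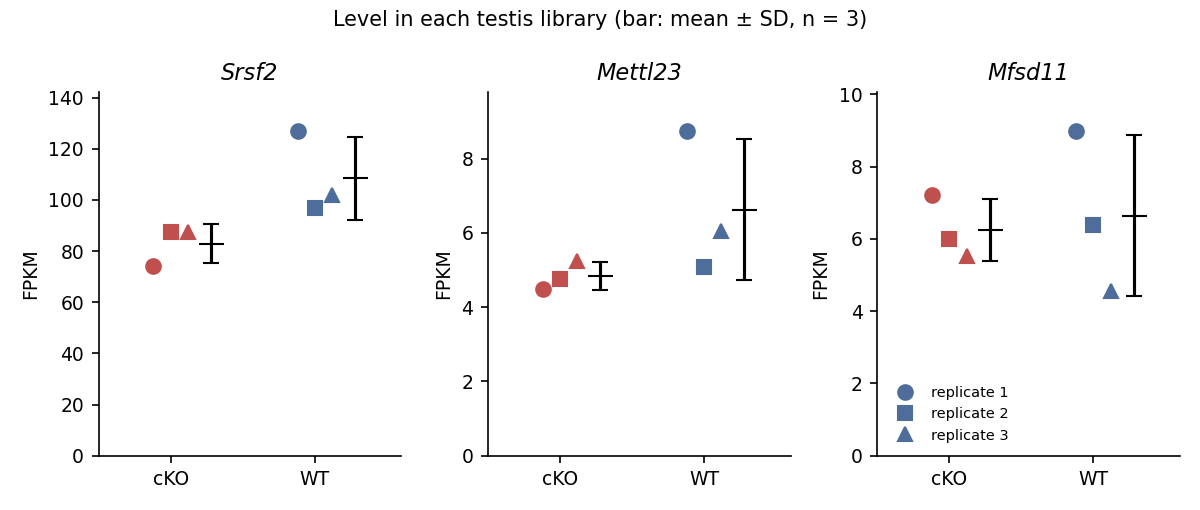
FPKM of Srsf2, Mettl23 and Mfsd11 in each cKO (red, left) and WT (blue, right) testis library, with the replicate number as symbol and the mean ± SD as bar (n = 3 each). For Srsf2 the cKO libraries lie between 74.0 and 87.3 and the WT libraries between 96.7 and 127; for Mettl23 and Mfsd11 the groups overlap, and WT replicate 1 is highest in all 3 panels.

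Mettl23 was expressed at a small part of the Srsf2 level. Its values were 4.50, 4.75 and 5.25 FPKM in the cKO testes, against 8.74, 5.08 and 6.05 FPKM in the WT testes. The groups overlapped, since cKO replicate 3 lay above WT replicate 2, and WT replicate 1 was far above the other 5 libraries. The means were 4.83 ± 0.382 FPKM in cKO and 6.62 ± 1.90 FPKM in WT (SD, n = 3 each). On the log2 scale the difference was -0.36 with a 95% interval of -0.77 to 0.05 and did not pass (limma adjusted p = 0.440), and 8.53% of all genes had a difference at or below it. Counting error was 10.3 to 13.9% either way for the 207 to 231 reads in cKO and 230 to 375 reads in WT. Without WT replicate 1 the cKO mean was 86.9% of the WT mean instead of 73.0%, and the log2 difference was -0.17 (limma adjusted p = 0.561).

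Relative to its mean, Mfsd11 had the widest spread of the 3 genes among WT testes, with an SD of 33.5% of the mean. It had 7.21, 5.98 and 5.53 FPKM in the cKO testes, against 8.98, 6.37 and 4.56 FPKM in the WT testes. The WT libraries held both the highest and the lowest value, and the cKO libraries lay between them. The means were 6.24 ± 0.868 FPKM in cKO and 6.64 ± 2.22 FPKM in WT (SD, n = 3 each), from 639 to 871 and 526 to 1011 reads. The log2 difference was -0.04, with a 95% interval of -0.53 to 0.44 (limma adjusted p = 0.943). This interval spans 0.693 to 1.36 of the WT level on the FPKM + 1 scale. The sign turned without WT replicate 1, to 0.17 (limma adjusted p = 0.645).

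Levels per length can be compared between genes on the FPKM scale. Srsf2 lay above both neighbours in every library. Mettl23 stood at 6.08, 5.44 and 6.01% of the Srsf2 FPKM in the cKO testes and at 6.88, 5.25 and 5.94% in the WT testes. The groups overlapped, and the means of this ratio, 5.84 ± 0.348% in cKO and 6.03 ± 0.820% in WT (SD, n = 3 each), differed by less than the spread (exact two-sided permutation p = 0.9 for the log2 difference between the genes, and 0.4 without WT replicate 1). Mfsd11 stood at 9.75, 6.85 and 6.34% of the Srsf2 FPKM in cKO and at 7.07, 6.59 and 4.48% in WT. The Mfsd11 ratio was highest in cKO replicate 1 and lowest in WT replicate 3, and the groups overlapped (exact two-sided permutation p = 0.4). The log2 difference of Mfsd11 from Srsf2, cKO minus WT, was 0.34, but 0.16 without cKO replicate 1, 0.17 without WT replicate 3 and 0.43 without WT replicate 1. The order of Mettl23 and Mfsd11 was not stable: Mfsd11 was the higher of the pair in all 3 cKO libraries and in WT replicates 1 and 2, and the lower in WT replicate 3.

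The shared bases bear on how the reads of this locus were divided. Had the Srsf2 reads been spread evenly over its exons, 581 to 708 of them in the cKO libraries and 747 to 929 in the WT libraries would lie on the 460 bases it has in common with Mettl23. All reads assigned to Mettl23 came to 31.9 to 35.6% of that number in cKO and 30.8 to 40.4% in WT. On the 288 bases in common with Mfsd11, even coverage would place 364 to 443 Srsf2 reads in cKO and 468 to 582 in WT, and Mfsd11 held 156 to 239% of that in cKO and 110 to 174% in WT. The reads assigned to Mettl23 were fewer than even Srsf2 coverage of the shared stretch would give, in 6 of 6 libraries. Coverage along the genes is not part of the table, and no source used here gives the use of strand or the treatment of reads that touch both genes. The values of all 3 genes are uncertain to that extent.

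Over the 6 libraries, Mettl23 followed the Srsf2 pattern more closely than Mfsd11 did. Likeness was measured as the root mean square difference between profiles of log2(FPKM + 1), each centred on its own mean. Mettl23 lay 0.10 from Srsf2, which would place it at rank 29 among 8154 protein-coding genes with a mean of at least 5 FPKM, while Mfsd11 lay 0.30 from it, at rank 4539. The median distance of those genes from Srsf2 was 0.28. Both Srsf2 and Mettl23 were lowest in cKO replicate 1 and highest in WT replicate 1. Without WT replicate 1, chosen as an alternative after seeing the data, Mettl23 lay 0.08 from Srsf2 at rank 50. Mfsd11 lay 0.32 from Srsf2 at rank 7518, against a median of 0.21 over all these genes. Counted from Mettl23 instead, Srsf2 was at rank 28 over the 6 libraries and at rank 359 without WT replicate 1. These are descriptions over 6 or 5 libraries, and both Mettl23 and Mfsd11 have exon bases in common with Srsf2 (460 and 288).

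The genes nearest to Srsf2 in pattern were Iah1 (0.05), Cenpa (0.07), which encodes the centromeric histone, Pmf1 (0.07), a kinetochore gene, Lipt2 (0.07), of mitochondrial lipoate synthesis, and Htra2 (0.07), a mitochondrial protease. Iah1 had 7.95, 9.02 and 8.59 FPKM in cKO and 13.9, 10.5 and 11.5 FPKM in WT. It had its extremes in the same libraries as Srsf2, but Iah1 and the genes below were picked for such likeness over these libraries. Nearest to Mettl23 were Pmf1 (0.06), Ppdpf (0.07), Glrx5 (0.07), of iron-sulphur cluster assembly, Wdr83 (0.07) and Coa3 (0.07), a cytochrome c oxidase assembly factor. Pmf1 was among the 5 nearest of both, with 10.9, 11.6 and 12.6 FPKM in cKO and 19.5, 13.2 and 15.6 FPKM in WT. Nearest to Mfsd11 were Baiap2 (0.07), Aggf1 (0.07), Edn1 (0.08), the endothelin gene, Mapk3 (0.08), the kinase ERK1, and Prmt2 (0.08), an arginine methyltransferase. Aggf1 had 52.0, 41.8 and 34.7 FPKM in cKO and 58.6, 44.1 and 32.7 FPKM in WT, so that WT replicate 3 was its lowest library, as for Mfsd11. Without WT replicate 1 the ranks of these genes moved, to between 4 and 25 for the 5 named for Srsf2, between 55 and 275 for those of Mettl23 and between 39 and 80 for those of Mfsd11.

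**Figure D3:**
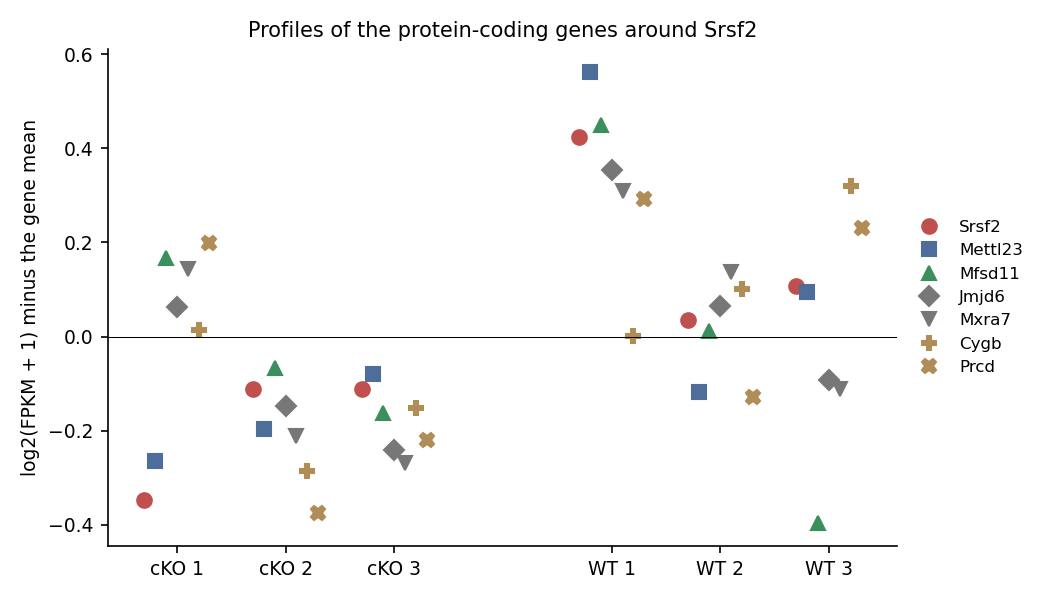
log2(FPKM + 1) minus the mean of the gene over the 6 libraries, for Srsf2, Mettl23, Mfsd11 and 4 further protein-coding genes within 200 kb, by library; each symbol is 1 gene in 1 library. In WT replicate 1 every gene except Cygb lies well above its own mean, Srsf2 and Mettl23 are lowest in cKO replicate 1, and Mfsd11 is lowest in WT replicate 3.

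The wider neighbourhood was next examined. A window from 200 kb before to 200 kb after Srsf2 held 18 annotated genes, 17 of them in the table, and 14 of those were not among the 3 locus genes. Of these 14, 5 reached the mean of 1 FPKM needed for testing and 0 were called by limma or by limma voom, with 0 at an unadjusted p under 0.05. These 5 were Jmjd6, Mxra7, Cygb, Prcd and the noncoding Snhg16, and their median log2 difference was -0.22, against 0.00 over all genes tested. All 5 differences were negative, and with length and GC trends removed 3 were negative and 2 positive, with a median of -0.03. Jmjd6, an oxygenase gene whose protein hydroxylates the splicing factor U2AF2, had 13.0, 11.1 and 10.3 FPKM in cKO and 16.1, 13.0 and 11.6 FPKM in WT, a log2 difference of -0.22 (limma adjusted p = 0.552), or -0.09 without WT replicate 1. Its groups overlapped, and each group had its highest value in replicate 1, as Mfsd11 did. Mxra7, next to Jmjd6, had 19.7, 15.2 and 14.5 FPKM in cKO and 22.2, 19.6 and 16.3 FPKM in WT, at a log2 difference of -0.22 that became 0.01 with length and GC trends removed. Leaving out cKO replicate 1 gave -0.35, cKO replicate 3 gave -0.14 and WT replicate 1 gave -0.12. The Jmjd6 and Mxra7 profiles lay 0.06 apart, the closest pair among the 7 expressed protein-coding genes of the window, followed by Mettl23 and Srsf2 at 0.10. Without WT replicate 1 these were again the closest pairs, at 0.06 and 0.08. At the far edge of the window, Cygb, which encodes cytoglobin, averaged 34.0 ± 3.66 FPKM in cKO and 41.6 ± 4.92 FPKM in WT, and Prcd, a photoreceptor disc gene, 3.35 ± 0.924 and 4.19 ± 0.780 FPKM (SD, n = 3 each), neither of them called (limma adjusted p = 0.427 and 0.566). With length and GC trends removed the log2 difference of Cygb was -0.03 instead of -0.28, and that of Prcd 0.03 instead of -0.26. Of these 7 genes, 6 had their highest value in WT replicate 1, where 26.9% of all genes tested did.

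The other members of the SR protein family were set beside Srsf2. Of the 10 other SR genes 0 were called in either direction by limma or by limma voom, with 0 at an unadjusted p under 0.05, and 7 had a positive and 3 a negative log2 difference, with a median of 0.07 and a range of -0.28 to 0.22. On the TPM scale 9 were positive and 1 negative, and with length and GC trends removed 4 were positive and 6 negative and the median was -0.05. By mean FPKM Srsf2 ranked the third of 11 SR genes in cKO and the second in WT. Around it, Srsf9 was at 108 ± 13.8 FPKM in cKO and 134 ± 34.2 FPKM in WT (log2 difference -0.28, or -0.09 without WT replicate 1), and Srsf6 at 94.2 ± 10.5 FPKM in cKO and 90.5 ± 6.90 FPKM in WT (SD, n = 3 each). The intervals of 1 SD around Srsf2 and Srsf6 overlapped in both groups, and those around Srsf2 and Srsf9 overlapped in WT but not in cKO. Next came Srsf7 at 80.8 ± 10.7 FPKM in cKO and 77.2 ± 10.6 FPKM in WT, and Srsf1 at 79.6 ± 4.15 FPKM in cKO and 75.0 ± 4.02 FPKM in WT. Srsf5 was at 70.8 ± 6.09 FPKM in cKO and 73.0 ± 10.6 FPKM in WT, and Srsf3, which encodes the smallest SR protein, at 68.3 ± 8.30 FPKM in cKO and 63.2 ± 13.3 FPKM in WT. Srsf10 and Srsf11 had log2 differences of 0.21 and 0.22, but 0.02 and 0.10 with length and GC trends removed. Srsf10, which acts mostly as a splicing repressor, was at 37.8 ± 2.90 FPKM in cKO and 32.5 ± 2.75 FPKM in WT, and Srsf11 at 30.0 ± 3.91 FPKM in cKO and 25.4 ± 1.92 FPKM in WT. Srsf4 and Srsf12 were the least abundant, at 8.24 ± 1.29 and 3.93 ± 0.542 FPKM in cKO and 8.66 ± 2.01 and 3.53 ± 0.489 FPKM in WT. The groups of all 10 overlapped, and those of Srsf2 did not. Groups without overlap were found in 18.6% of all genes, with cKO below WT, as for Srsf2, in 9.92%.

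**Figure D4:**
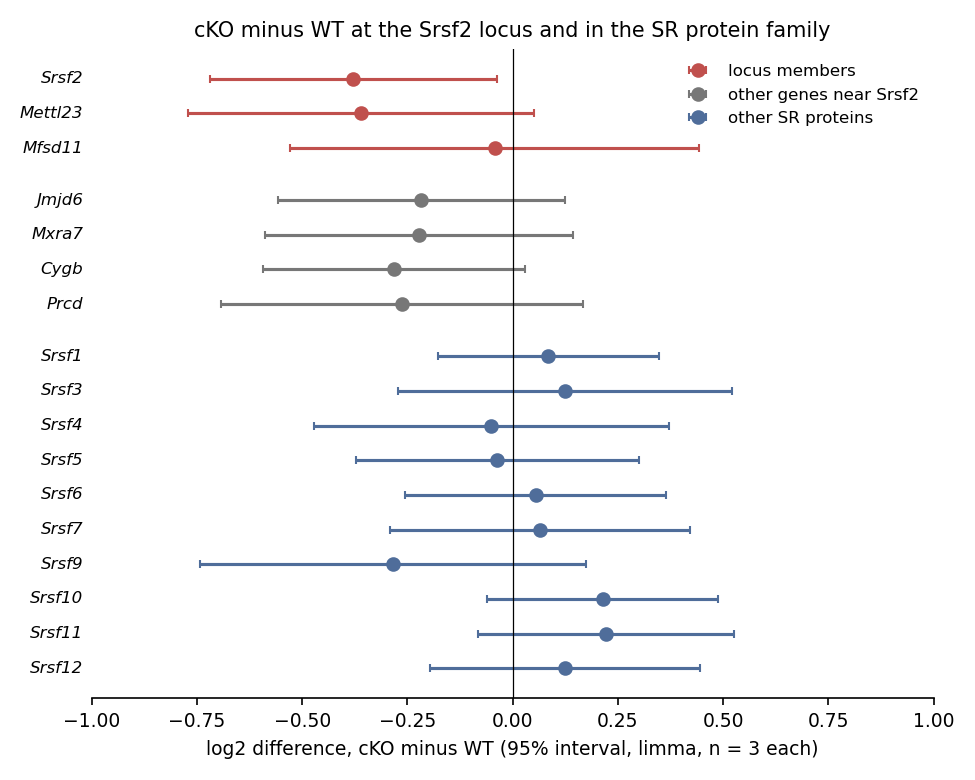
log2 difference, cKO minus WT, with its 95% interval from limma (n = 3 each) for the 3 genes of the locus (red), 4 further expressed protein-coding genes within 200 kb (grey) and the 10 other SR genes (blue). The interval of Srsf2 runs from -0.72 to -0.04, and every other interval shown includes 0; no gene shown passed after adjustment over all genes.

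The kinases that phosphorylate SR proteins and the factors that work beside SRSF2 at exons did not pass either. Of 8 kinase genes 7 were tested and 0 called by limma or by limma voom, where limma called 0.0140% of all genes. An unadjusted p under 0.05 was found for 2 of them, both with cKO higher, against 4.65% of all genes. The median log2 difference of the 7 was 0.05, but 0.24 without cKO replicate 1 and 0.0041 without cKO replicate 3. Of these 7, 5 were positive, against 6 on the TPM scale and 3 with length and GC trends removed. Srpk2, an SR protein kinase, was at 7.52 ± 0.778 FPKM in cKO and 5.81 ± 0.388 FPKM in WT, and Prpf4b, a kinase of the tri-snRNP, at 19.8 ± 2.55 FPKM in cKO and 15.7 ± 1.02 FPKM in WT (SD, n = 3 each). The groups of these genes did not overlap, with cKO above WT, as for 8.69% of all genes (limma adjusted p = 0.380 and 0.396). With length and GC trends removed their log2 differences of 0.32 and 0.31 became 0.10 and 0.10. Clk1 and Clk3, kinases of nuclear speckles, had log2 differences of 0.26 and -0.08, and that of Clk1 turned to -0.02 with length and GC trends removed. Of 15 partner genes, all tested, 0 were called by limma or by limma voom. An unadjusted p under 0.05 with cKO lower was found for 2, Snrnp70 and U2af2, against 7.68% of all genes. The median log2 difference of the 15 was -0.11, with 10 negative and 5 positive differences. On the TPM scale 8 were negative and 7 positive, and with length and GC trends removed 14 were negative and 1 positive. Snrnp70, the U1 protein that SR proteins contact through their RS domains, was at 16.9 ± 1.73 FPKM in cKO and 25.7 ± 3.04 FPKM in WT, a log2 difference of -0.58 (limma adjusted p = 0.360). For Snrnp70 and U2af2 all 3 cKO libraries lay below all 3 WT libraries, as in 9.92% of all genes. For Sf3b1 all 3 cKO libraries lay above, as in 8.69%. U2af2, the large subunit of the factor that binds the polypyrimidine tract, was at 46.2 ± 5.35 FPKM in cKO and 57.1 ± 3.33 FPKM in WT (limma adjusted p = 0.398), a log2 difference of -0.31 that became -0.17 with length and GC trends removed. Sf3b1, of the U2 particle, was at 44.3 ± 4.47 FPKM in cKO and 36.9 ± 0.361 FPKM in WT (limma adjusted p = 0.418), and its log2 difference of 0.25 became -0.01 with length and GC trends removed. Hexim1, an inhibitor of the elongation kinase P-TEFb, was at 25.4 ± 1.21 FPKM in cKO and 29.0 ± 2.63 FPKM in WT (limma adjusted p = 0.525).

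Relatives of the 2 neighbours were measured as well. Of 10 methyltransferase genes related to Mettl23, 7 were tested and 0 called by limma or by limma voom (0 at an unadjusted p under 0.05), with a median log2 difference of 0.02 and a range of -0.16 to 0.16. Mettl18, a histidine methyltransferase gene, was at 3.01 ± 0.484 FPKM in cKO and 3.49 ± 0.804 FPKM in WT, and Camkmt, the calmodulin methyltransferase gene, at 2.51 ± 0.0958 FPKM in cKO and 2.17 ± 0.523 FPKM in WT (SD, n = 3 each). Eef2kmt and Etfbkmt, which act on an elongation factor and an electron transfer flavoprotein, had log2 differences of 0.09 and -0.09. Mettl23 lay at -0.36, and at -0.17 without WT replicate 1, which also moved Mettl18 to -0.03 and Camkmt to 0.27. Of 22 MFSD-named or UNC93 genes related to Mfsd11, 15 were tested and 0 called by limma or by limma voom. Of these 15, 1, Mfsd10, had an unadjusted p under 0.05 with cKO lower, against 7.68% of all genes. The log2 differences of the 15 had a median of 0.03 and a range of -0.36 to 0.46. Groups without overlap were found in 1 with cKO lower and in 2 with cKO higher, against 9.92% and 8.69% of all genes. Mfsd10 was at 15.6 ± 2.62 FPKM in cKO and 20.2 ± 1.45 FPKM in WT, with cKO below WT in every pair of libraries, and Mfsd14b at 18.3 ± 1.37 FPKM in cKO and 16.0 ± 0.245 FPKM in WT, with cKO above WT in every pair. Neither passed, at log2 differences of -0.36 and 0.18 (limma adjusted p = 0.382 for Mfsd10), which became -0.12 and 0.01 with length and GC trends removed. Mfsd4a and Mfsd3, both of low level, had log2 differences of 0.46 and -0.35. That of Mfsd4a was 0.20 without WT replicate 1, and that of Mfsd3 was -0.18 without cKO replicate 2 and -0.13 with length and GC trends removed.

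**Figure D5:**
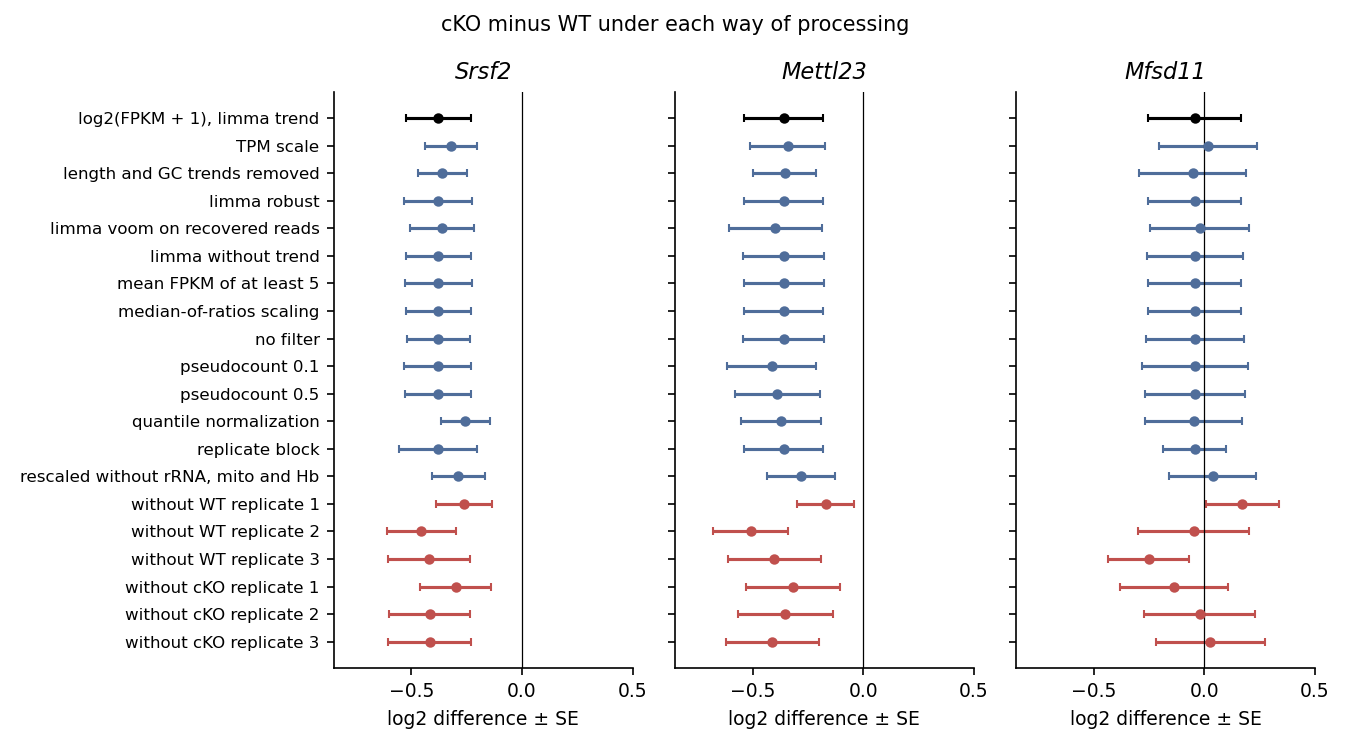
log2 difference, cKO minus WT, ± SE for Srsf2, Mettl23 and Mfsd11 under the values as reported (black), 13 other ways of processing (blue) and with each library left out (red). Srsf2 and Mettl23 are negative throughout, Srsf2 between -0.46 and -0.26 and Mettl23 between -0.51 and -0.17, while Mfsd11 takes both signs, from -0.25 to 0.17.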

How the data were processed

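RNA of 6 whole-testis samples was sequenced from Trizol extracts and SMARTER mRNA-Seq libraries, per the labels' protocols. The authors deposited FPKM values per gene with the gene length in bases. Builds GRCm38 and mm10 are named per the submitters' processing notes; no source used here names the aligner, the counter or the strand setting. Only 1499 of 52081 shared identifiers had the same start in the deposited table as in GENCODE M21. Most starts in that table thus differ from this GRCm38 annotation, although GRCm38 and mm10 are named. The positions printed are therefore those of GENCODE M21. Median-of-ratios factors of the deposited FPKM were equal in all libraries (1.0000 over 20474 genes above 0 in every library). Numbers of reads were recovered from FPKM times length, which came to whole multiples of a library's smallest step in at least 99.988% of nonzero values (tolerance 0.01). Intervals from these numbers of reads cover counting error only.

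The test was limma 3.58.1 (R 4.3.3) with trend on log2(FPKM + 1) for cKO minus WT, over 14238 genes averaging 1 FPKM or more, adjusted over all of them by Benjamini-Hochberg at 0.05. Such fold changes understate those of low genes. Single values were tested by exact permutation of samples. The members, lists and tests were chosen with earlier results of these data known. Named were the locus genes, expressed protein-coding genes within 200 kb, all SR genes, up to 4 genes of lowest adjusted p of the other lists (cell markers as sums only), and the 5 nearest profiles. Mfsd7b and Mfsd7c were matched as Flvcr1 and Flvcr2 by RefSeq synonyms. The procedure was tested on simulated data with changes larger than those of the locus genes and without a library that stood apart. That test does not tell how often differences as small as those of the locus would be found. GC content was known for 97.9% of tested genes, and trends were natural splines with 5 degrees of freedom.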

Additional observations from a re-analysis of the deposited data

How the results depend on the processing

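Over 19 alternatives, of which 6 leave out a library each, the 3 locus genes were called in 0. In 6 of the 19 the log2 difference of Srsf2 and Mettl23 did not move (within 0.001), since they alter only the variance model, the filter or a scaling already met; in the 13 that moved it both were negative, Srsf2 between -0.38 and -0.26 under other processing and between -0.46 and -0.26 with a library left out, Mettl23 between -0.41 and -0.28 and between -0.51 and -0.17. Their adjusted p ranged from 0.280 to 0.840 and from 0.277 to 0.840. Mfsd11 was negative in 7 of the 11 that moved it, and turned to 0.016 on the TPM scale and to 0.038 when rescaled to leave out rRNA, mitochondrial and haemoglobin genes; with a library left out it ran from -0.25 (without WT replicate 3) to 0.17 (without WT replicate 1), and it was 0.028 without cKO replicate 3. The difference of Mettl23 from Srsf2 (0.02) turned to -0.021 on the TPM scale, -0.037 by voom, -0.031 and -0.0067 with pseudocounts of 0.1 and 0.5 and -0.11 after quantile normalization, and ran from -0.053 to 0.093 with a library left out. That of Mfsd11 from Srsf2 (0.34) ran from 0.16 to 0.45 with a library left out. The 2 genes called across the table became 1 on the TPM scale, by voom, with a mean of at least 5 FPKM and with pseudocounts of 0.1 or 0.5, 3 with length and GC trends removed, 0 with no filter, and 0 without any 1 of the 6 libraries. Same-numbered libraries correlated in their deviations at 0.095, -0.331 and 0.393 and only the replicate 3 libraries correlated best with their own number, so the numbers were not taken to pair them; the replicate block left 0 genes called and gave adjusted p of 0.454 for Srsf2, 0.469 for Mettl23 and 0.915 for Mfsd11. With length and GC trends removed Clk1 turned to -0.025, Mxra7 to 0.0096, Prcd to 0.026, Sf3b1 to -0.0058, Srsf1 to -0.072, Srsf3 to -0.075, Srsf4 to 0.048, Srsf6 to -0.021 and Srsf7 to -0.11. Srsf4 was 0.0053 on the TPM scale and 0.029 when rescaled, and Srsf5 was 0.024 on the TPM scale, 0.054 when rescaled and 0.053 when quantile normalized. With a library left out, Etfbkmt ran from -0.31 to 0.060, Srsf4 from -0.23 to 0.066, Srsf5 from -0.15 to 0.053, Srsf6 from -0.012 to 0.14 and Srsf7 from -0.015 to 0.18. The cause of these changes was not tested. Counting error limits Mettl23 most, at 10.3 to 13.9% either way.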

Other observations

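St6galnac1, a sialyltransferase gene in the same 200 kb window, lay below the level needed for testing, and was picked out after its values were seen. It had 15, 19 and 12 reads in the cKO testes, against 6, 7 and 4 reads in the WT testes, so that all 3 cKO libraries lay above all 3 WT libraries at a very low level. Of tested genes, which average 1 FPKM or more, 8.69% had groups apart in this direction. The share among genes as low as St6galnac1 was not measured. Snhg16, a tested gene of the same window, had groups apart the other way, with cKO below WT, as 9.92% of tested genes did.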
